A study of Homo sapiens with 12 samples.

Results

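Of the 12 RNA sequencing libraries of the series 6 were compared, 3 from PC9 cells with AGR2 knocked down and 3 from PC9 control cells. They were chosen by their labels as the knockdown and its time-matched control, and all 6 came from cells given 300 nM gefitinib for 24 h. PC9 is a non-small cell lung cancer line that carries an activating EGFR mutation, and gefitinib inhibits the EGFR kinase. AGR2 is a protein disulfide isomerase of the endoplasmic reticulum that helps secretory cells fold mucins. The labels call the knockdown shAGR2, and they give neither the hairpin, nor what the control cells carried, nor whether the knockdown was 1 clone. Drug-free cells are not analysed here, and the response to gefitinib itself was not measured. The replicates are numbered 1 to 3 and nothing says that they were separate cultures, so each p-value measures only the spread between these libraries.

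Oncogenic EGFR signals through the RAS, RAF, MEK and ERK kinases to transcription factors that drive entry into the cell cycle. When ERK is active it also induces its own inhibitors, among them the DUSP phosphatases and the Sprouty proteins, whose mRNA levels are often read as a measure of pathway output. Cells that divide need nucleotides, histones, ribosomes and proteasomes, whereas differentiated epithelial cells invest in keratins, junctions, secretion and lysosomes. The comparison asks how these programmes stood in cells with little AGR2 under the drug.

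Levels are given as TPM (transcripts scaled to a fixed library total), a length-normalised abundance, after each library was divided by its median ratio to the gene-wise geometric mean. The median gene had a log2 change of 0.40 before that step and of -0.004 after it. All changes are therefore relative to the median gene, and where TPM as deposited gave a gene list another direction its counts are given beside it. Fold changes are on the log2(TPM + 1) scale, which understates those of low genes. Of 30225 listed genes 13974 reached 1 TPM in at least 3 of the 6 libraries and were tested. At an adjusted p below 0.05 (limma), 4336 genes rose in the knockdown, 31.0% of those tested, and 4293 fell, 30.7%. A change of at least 2-fold in addition was found for 637 that rose, 4.56%, and 914 that fell, 6.54%. All 3 knockdown libraries were above all 3 controls for 35.0% of genes and below them for 34.4%. These percentages are the background against which the count of each gene list is given below. The first principal component carried 80.3% of the variance and set the groups apart, and the log2 values correlated at 0.9842 to 0.9908 within groups and at 0.9199 to 0.9434 between them. More genes reached 1 TPM in the knockdown libraries, 13795 to 14089, than in the controls, 12130 to 12662, and the read depth behind TPM is unknown.

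The targeted gene followed its label. AGR2 (chromosome 7, 16791811 to 16833433, minus strand, GRCh38) was deposited at 0.592, 0.658 and 0.769 TPM in the 3 knockdown libraries, against 32.9, 31.2 and 31.7 TPM in the 3 controls. On the rescaled log2 scale the change was -4.65 (SE 0.072, adjusted p = 3.47e-06). Its annotated span overlaps a gene on the other strand, as do those of 53.4% of tested genes, and the sources used here do not state strand-specific counting.

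Markers of epithelial cells summed to 2284 to 2515 TPM in the knockdown libraries and to 6745 to 9178 TPM in the controls, mostly through KRT18. Endothelial and neuroendocrine markers stayed at or below 1.30 TPM in sum in every library. Of 7 fibroblast markers 4 were listed, and these stayed at or below 5.18 TPM in sum. Of 5 leukocyte markers 4 were listed, and CD68, a lysosomal protein, was the one tested. The sum of the listed markers was 101 to 125 TPM in the knockdown and 58.3 to 71.3 TPM in the controls, almost wholly CD68. The listed alveolar markers summed to 0.823 to 1.34 TPM in the knockdown and 1.63 to 1.81 TPM in the controls, with NKX2-1 the highest. The surfactant gene SFTPB did not reach the testing level, and SFTPC was not listed, so its level is unknown.

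**Figure D1:**
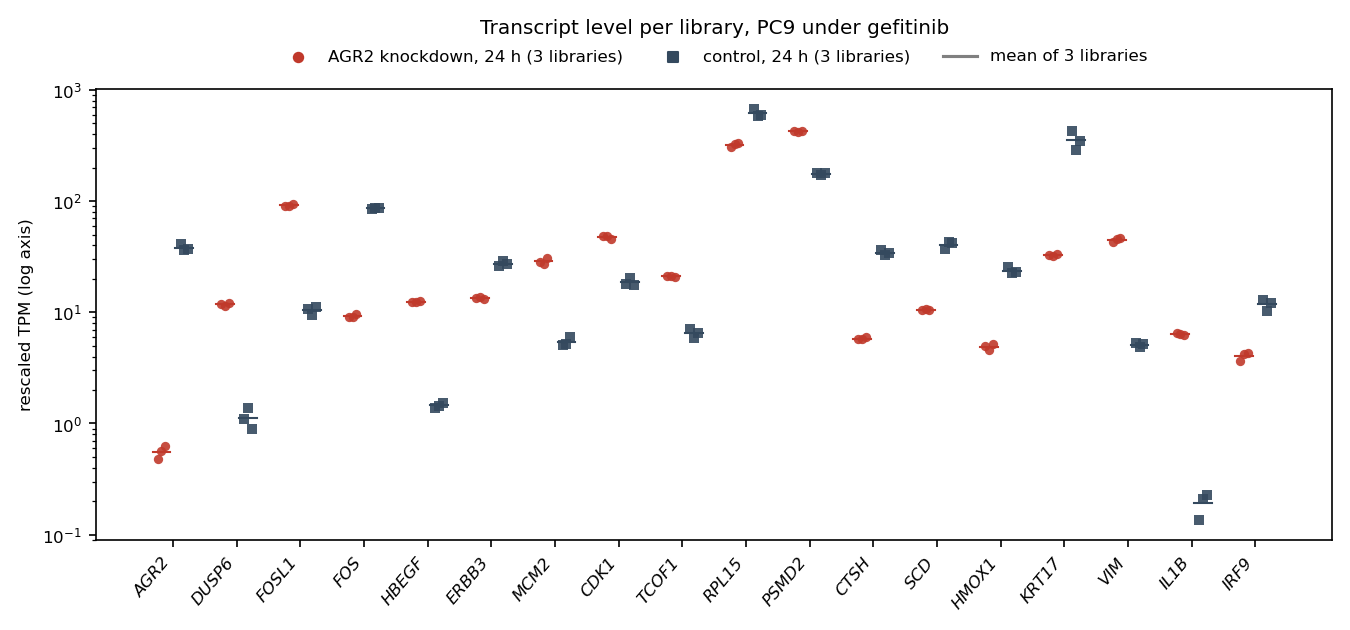
Rescaled TPM (log axis) of 18 genes in each of the 3 AGR2-knockdown libraries (circles) and the 3 control libraries (squares), with the mean of each group as a line. For every gene drawn the groups do not overlap, from AGR2 at 0.479 to 0.631 TPM in the knockdown and 36.7 to 41.2 TPM in controls to PSMD2 at 422 to 426 TPM in the knockdown and 172 to 180 TPM in controls. Among all tested genes the knockdown lay wholly above the controls for 35.0% and wholly below them for 34.4%.

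Genes that ERK induces to restrain itself stood higher in the knockdown. The list used also held ETV factors and other genes such as the cytokine gene LIF. Of its 14 tested genes 12 rose and 0 fell, with a median log2 change of 1.06. DUSP6, the cytoplasmic phosphatase that inactivates ERK, had 11.9, 11.4 and 12.1 TPM in the knockdown libraries, against 1.09, 1.38 and 0.887 TPM in the controls (log2 change 2.60, SE 0.093, adjusted p = 1.63e-05). DUSP4, its nuclear relative, had 42.4, 41.5 and 44.7 TPM in the knockdown, against 14.1, 13.9 and 14.6 TPM in the controls (1.53). The groups were far apart for both phosphatases. SPRY4, a Sprouty inhibitor of receptor signalling, averaged 1.64 TPM in the knockdown and 0.0811 TPM in controls. The PEA3 transcription factors ETV4, at 3.51, 3.75 and 3.80 TPM in the knockdown and 0.281, 0.217 and 0.290 TPM in controls, and ETV5 rose by 1.89 and 1.60 on the log2 scale. The exceptions were SPRY1 (0.00) and the cytokine gene LIF (-0.04), which did not pass the test.

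The early transcription factors of the same pathway did not move as a block. Among 15 tested AP-1 subunits and immediate-early genes 4 rose and 9 fell, with a median of -0.43 (as deposited, 5 rose and 5 fell and the median was 0.06). FOSL1, a Fos-family subunit stabilised by sustained ERK activity, had 90.1, 89.5 and 94.7 TPM in the knockdown libraries, against 10.6, 9.46 and 11.1 TPM in the controls (log2 change 3.02, adjusted p = 7.56e-06). FOS itself went the other way, at 9.13, 8.99 and 9.55 TPM in the knockdown and 85.3, 86.2 and 86.9 TPM in controls (-3.09, adjusted p = 3.47e-06). FOSL1 stood above FOS in every knockdown library and below it in every control. FOSB (-1.60), JUNB (-1.54) and the zinc-finger factor EGR1 (-1.55) also fell, and KLF6 (1.62) rose. JUN averaged 72.0 TPM in the knockdown and 99.8 TPM in controls (-0.46), and in TPM as deposited its change was 0.06.

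Several ligands of EGFR rose and 2 of its partner receptors fell. Of 10 tested genes of the receptors of the family, their ligands and their regulators 6 rose and 3 fell. The heparin-binding ligand HBEGF had 12.4, 12.4 and 12.6 TPM in the knockdown libraries, against 1.39, 1.43 and 1.54 TPM in the controls (log2 change 2.46, adjusted p = 5.00e-06). Epiregulin, EREG, had 7.44, 6.88 and 6.84 TPM in the knockdown, against 0.821, 0.814 and 0.770 TPM in the controls (2.16), and amphiregulin, AREG, averaged 7.05 TPM in the knockdown and 2.24 TPM in controls (1.31), whereas the ligand gene TGFA averaged 1.62 and 2.64 TPM in the same order (-0.47). ERBB3, the kinase-poor receptor that couples to PI3K, averaged 13.4 TPM in the knockdown and 27.4 TPM in controls (-0.98), and ERBB2 averaged 7.90 and 13.4 TPM in the same order (-0.69). EGFR had 15.3, 13.8 and 14.2 TPM in the knockdown and 11.5, 14.3 and 13.2 TPM in the controls, and with overlapping groups it did not pass (0.15, adjusted p = 0.201). Of 9 tested genes of other receptor kinases, their adaptors and ligands 3 rose and 1 fell (as deposited, 8 rose and 0 fell). The share that rose was near the 31.0% of all tested genes. AXL, a receptor linked to resistance against EGFR inhibitors (36.6 TPM in the knockdown and 24.4 TPM in controls, 0.57), and FGFR1 (2.04 and 0.909 TPM in the same order, 0.67) were among the rises. MET did not pass (-0.07).

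**Figure D2:**
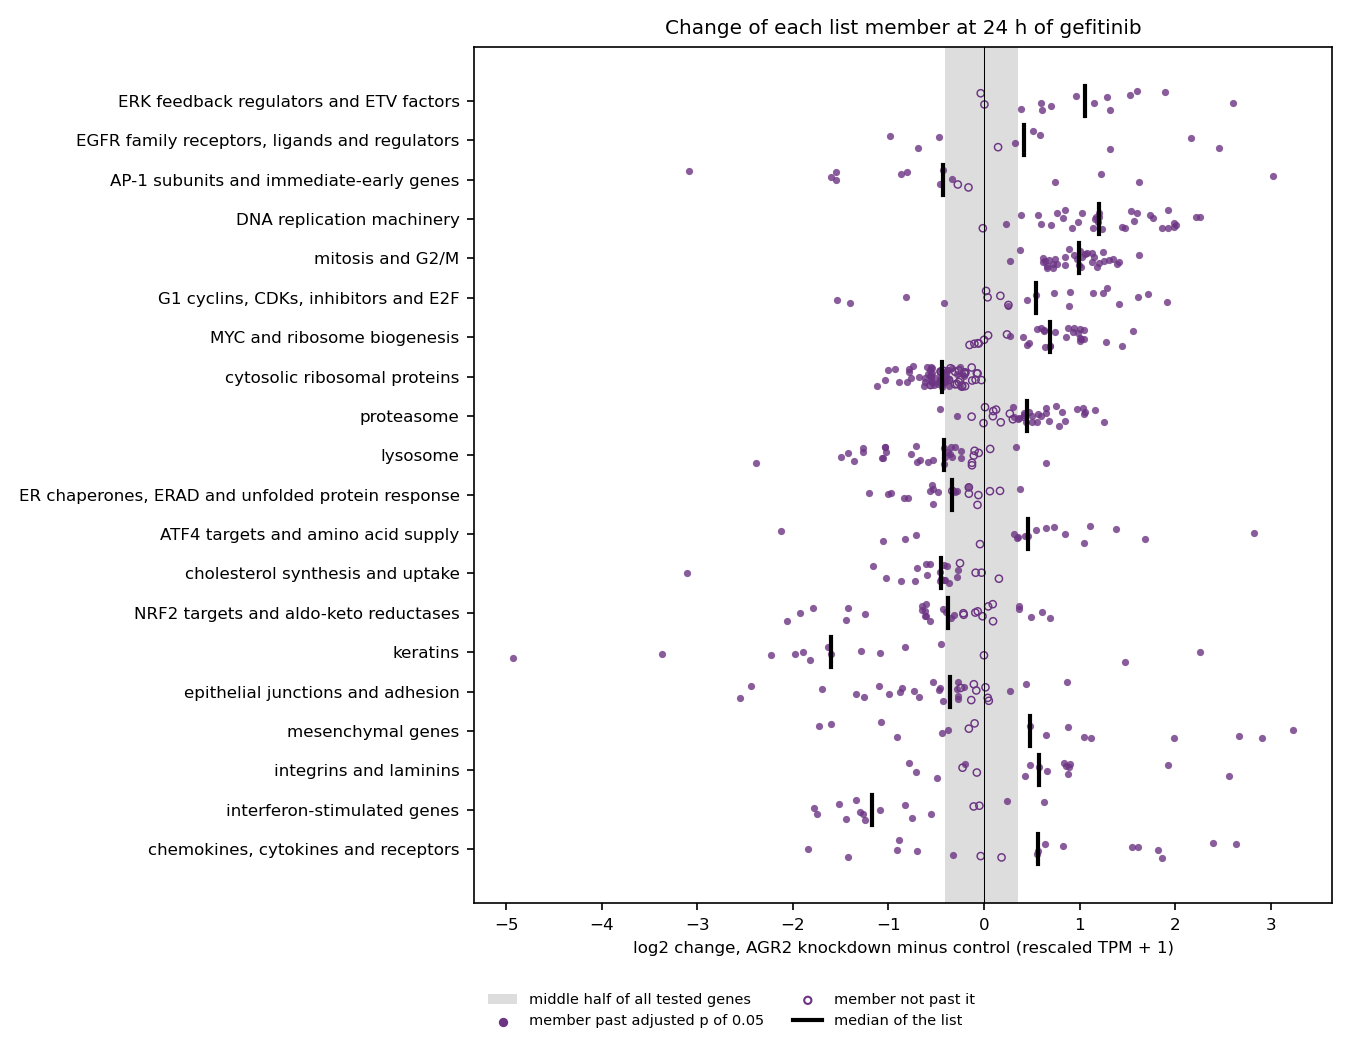
Log2 change of each tested member of 20 gene lists, AGR2 knockdown minus control, on rescaled TPM + 1. Filled points passed an adjusted p of 0.05, open points did not, black bars are list medians, and the grey band (-0.41 to 0.35) runs from the lower to the upper quartile of all tested genes. The medians run from 1.21 for DNA replication to -1.61 for keratins.

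Genes of DNA replication were higher with 1 exception. Of 34 tested genes of the DNA replication machinery 33 rose and 0 fell, with a median log2 change of 1.21, and 23 of them rose at least 2-fold. The exception was RPA3 (-0.01). CDC6, which loads the replicative helicase onto origins, had 14, 13.4 and 14.3 TPM in the knockdown libraries, against 2.02, 2.12 and 2.19 TPM in the controls (2.26). MCM2, a subunit of that helicase, had 28.4, 27.3 and 30.9 TPM in the knockdown, against 5.12, 5.16 and 6.03 TPM in the controls (2.22). The origin recognition subunit ORC6 (1.99), the helicase cofactor GINS2 (1.98), the sliding clamp PCNA (1.54) and the flap endonuclease FEN1 (2.01) rose alike. All knockdown libraries stood above all controls for each of these. This held for 33 of the 34 tested genes of the list and for 35.0% of all tested genes. Of 21 genes of nucleotide synthesis, which makes the precursors of DNA, 20 rose and 1 fell, with a median of 0.83. RRM2 and RRM1, the subunits of ribonucleotide reductase, averaged 6.80 and 9.95 TPM in the knockdown and 1.72 and 2.99 TPM in controls. The purine enzyme PAICS (1.39) and the thymidylate synthase TYMS (1.44) were other large rises.

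Genes of the later phases of the cycle rose too. All 35 tested genes of mitosis and G2/M rose, with a median of 0.99. TOP2A, which untangles replicated chromosomes, averaged 43.2 ± 3.48 TPM in the knockdown and 13.4 ± 1.81 TPM in controls (SD, n = 3 each; log2 change 1.62). The mitotic kinase CDK1 had 49.0, 48.3 and 45.4 TPM in the knockdown, against 18.1, 20.5 and 17.5 TPM in the controls (1.31), and its partner CCNB1 averaged 81.7 and 53.2 TPM in the same order (0.61). Of 28 genes of homologous recombination, the Fanconi pathway and the replication checkpoint 23 rose and 0 fell (median 0.83), with FANCI (1.52), RAD51AP1 (1.40), UBE2T (1.40) and TIMELESS (1.37) among them. BRCA1 averaged 1.75 TPM in the knockdown and 0.380 TPM in controls (0.99). The 27 nuclear pore genes gave 25 rises and 0 falls (median 0.54), NUP62 (1.07) and NDC1 (0.99) included.

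The regulators of the G1 phase were called in both directions. Among 21 tested, 13 rose and 4 fell. E2F1, the activator of S-phase genes, had 14.5, 15.3 and 16 TPM in the knockdown, against 4.40, 3.61 and 3.85 TPM in the controls (1.71). E2F8 (1.92), cyclin E1, CCNE1 (1.61), and cyclin D1, CCND1 (0.90), rose with it. Of the CDK inhibitors CDKN2B averaged 20.8 TPM in the knockdown and 62.3 TPM in controls (-1.54), CDKN1C 4.59 and 14 TPM (-1.41) and CDKN1B, which encodes p27, 8.38 and 15.5 TPM (-0.82), each in that order. CDKN1A, which encodes p21, rose (0.45), and other tested inhibitors are not described here. Of 11 genes that copy or remove DNA methylation 8 rose and 2 fell. CDCA7, which recruits the remodeller HELLS, had 20.7, 19.4 and 19.4 TPM in the knockdown, against 2.18, 1.96 and 2.11 TPM in the controls (2.76), and UHRF1 (1.21), DNMT1 (0.95) and HELLS (0.93) rose too.

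Promoters of these lists were searched for short words known to bind cell-cycle factors, and stretches of 180 bases from RefSeq (GRCh38.p14, 150 bases before to 30 after the transcription start) are shown for the members with the largest change that hold the words within that stretch. The E2F word was any of TTTCCCGC, TTTCGCGC, TTTGCCGC and TTTGGCGC, the CHR word was TTTGAA, bound by the MuvB complex, and the CCAAT word, bound by NF-Y, was CCAAT, each on either strand. Capitals mark the E2F word in CDC6 and MCM2 (in MCM2, 2 overlapping matches on opposite strands), and the CHR and CCAAT words (or their reverse complements) in PRC1, a microtubule bundler of the mitotic midzone, and ESPL1, which encodes separase. They mark the CCAAT word (or its reverse complement) in MANF, an endoplasmic reticulum stress protein, and TM7SF2, a sterol reductase, both of which fell. Other words are left in lower case, among them the CCAAT word in CDC6 and the CHR word in TM7SF2.
CDC6 (chr17:40287729-40287908, plus strand): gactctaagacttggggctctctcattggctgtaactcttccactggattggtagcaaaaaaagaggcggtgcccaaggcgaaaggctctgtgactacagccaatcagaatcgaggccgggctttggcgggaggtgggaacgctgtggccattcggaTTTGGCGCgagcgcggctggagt
MCM2 (chr3:127598261-127598440, plus strand): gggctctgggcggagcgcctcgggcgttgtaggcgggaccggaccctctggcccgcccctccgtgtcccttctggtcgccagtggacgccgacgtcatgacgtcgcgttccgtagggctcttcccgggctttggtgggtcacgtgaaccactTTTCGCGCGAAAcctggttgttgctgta
PRC1 (chr15:90994506-90994685, minus strand): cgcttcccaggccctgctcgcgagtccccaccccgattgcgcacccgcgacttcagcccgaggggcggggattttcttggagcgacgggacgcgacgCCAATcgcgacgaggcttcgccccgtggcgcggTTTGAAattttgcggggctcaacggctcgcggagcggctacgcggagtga
ESPL1 (chr12:53268149-53268328, plus strand): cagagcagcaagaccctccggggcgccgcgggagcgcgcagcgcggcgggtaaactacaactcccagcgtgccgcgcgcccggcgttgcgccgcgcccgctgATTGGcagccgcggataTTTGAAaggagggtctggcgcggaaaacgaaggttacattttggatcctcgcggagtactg
MANF (chr3:51385141-51385320, plus strand): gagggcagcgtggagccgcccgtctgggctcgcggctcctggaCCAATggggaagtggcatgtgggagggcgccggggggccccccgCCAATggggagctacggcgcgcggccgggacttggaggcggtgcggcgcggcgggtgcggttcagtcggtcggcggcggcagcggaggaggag
TM7SF2 (chr11:65111722-65111901, plus strand): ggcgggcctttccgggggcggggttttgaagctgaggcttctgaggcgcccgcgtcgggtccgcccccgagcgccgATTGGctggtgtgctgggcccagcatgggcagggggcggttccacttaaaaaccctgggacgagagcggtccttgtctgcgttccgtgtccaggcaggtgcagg

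Over windows of 300 bases (250 before to 50 after the start, the first promoter listed for a symbol), an E2F word was found in 3.3% of 27305 promoters and in 5.6% of the 8105 promoters matched to tested protein-coding genes. It was found in 14 of 27 replication promoters, 51.9%, and in 3 of 29 mitosis promoters, 10.3%. The CHR word had the opposite distribution, with 75.9% of mitosis promoters, 0 of the replication promoters and 9.0% of those of all tested coding genes. The CCAAT word was in 82.8% of mitosis and 63.0% of replication promoters, against 37.5% over all tested coding genes. Lists that fell held it as well, with 85.0% of 20 endoplasmic reticulum chaperone promoters and 82.4% of 17 cholesterol promoters. Replication genes with an E2F word had a median log2 change of 1.36 and those without it 1.21 (n = 14 and 13), and mitosis genes with and without a CHR word had medians of 1.07 and 0.74 (n = 22 and 7). A match is a description of these letters and not a measured site.

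**Figure D3:**
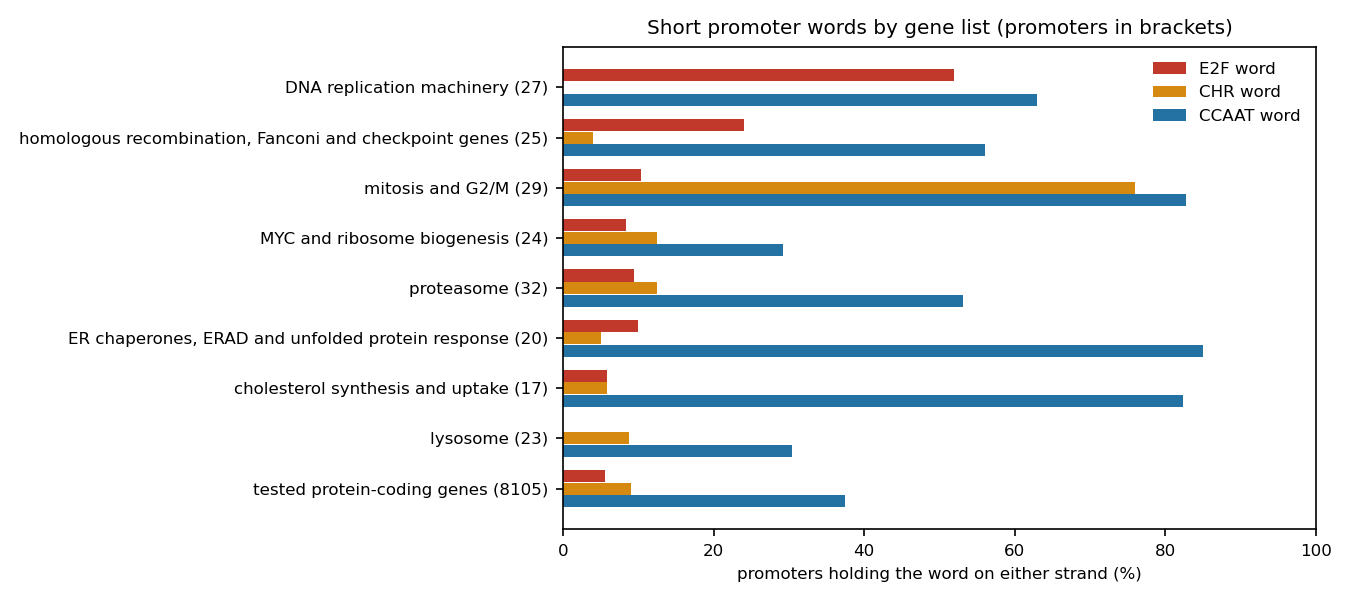
Percent of promoters (300 bases, either strand) that hold the E2F, CHR or CCAAT word in 8 gene lists and in all tested protein-coding genes, with the number of promoters in brackets. The E2F word stands out in replication genes (51.9%), the CHR word in mitosis genes (75.9%) and the CCAAT word in both and in endoplasmic reticulum chaperones (85.0%).

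Machinery for growth moved unevenly. MYC averaged 102 TPM in the knockdown and 52.9 TPM in controls (log2 change 0.93, adjusted p = 0.000159). Of 33 tested genes of MYC and ribosome biogenesis 26 rose and 0 fell (median 0.69). TCOF1, the nucleolar treacle protein, had 21.0, 21.4 and 20.6 TPM in the knockdown, against 7.07, 5.85 and 6.51 TPM in the controls (1.56), and the helicase DDX21 (1.44), the pre-ribosomal factor BOP1 (1.27) and nucleolin, NCL (0.86), rose as well. The ribosomal proteins themselves did not follow: of 75 tested 0 rose and 50 fell with rescaling (median -0.44), whereas in TPM as deposited 19 rose and 6 fell (median 0.09). RPL15 had 307, 325 and 335 TPM in the knockdown, against 670, 580 and 599 TPM in the controls (-0.93; as deposited -0.40), and RPS27 averaged 350 and 707 TPM in the same order (-1.01). Ribosomal protein genes have many near-identical pseudogenes, and pseudogenes held 29.1% of all TPM in the knockdown and 25.9% in controls, so their single values are uncertain. Of 20 cytosolic aminoacyl-tRNA synthetases 15 rose and 2 fell, with FARSB (1.36), IARS1 (1.09) and VARS1 (1.08) up and QARS1 down (-1.02). Among 42 splicing factors 22 rose and 1 fell, by small amounts (median 0.22).

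Genes of the proteasome, which degrades tagged proteins, mostly rose. Of 38 proteasome genes 27 rose and 2 fell (median 0.45). PSMD2, a subunit of the regulatory cap, had 426, 422 and 422 TPM in the knockdown, against 177, 172 and 180 TPM in the controls (1.26, adjusted p = 2.35e-05), and the cap subunits PSMD11 (1.16), PSMD14 (1.06), PSMD3 (1.05) and PSMD12 (1.03) followed. Of 26 cytosolic and mitochondrial chaperones 20 rose and 3 fell. The chaperone HSP90AA1 had 726, 685 and 641 TPM in the knockdown, against 262, 302 and 267 TPM in the controls (1.30), and the mitochondrial HSPD1 averaged 173 and 82.0 TPM in the same order (1.07). The small heat shock protein HSPB1 (-1.03) and HSPA1A (-0.65), which has a near-identical paralog, fell.

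Lysosomal genes mostly fell. Of 35 tested 2 rose and 27 fell, 11 of them at least 2-fold (median -0.42; as deposited, 8 rose and 14 fell). The protease cathepsin H, CTSH, had 5.73, 5.71 and 5.94 TPM in the knockdown, against 36.4, 32.6 and 34.4 TPM in the controls (-2.38). The acid ceramidase ASAH1 (-1.50), progranulin, GRN (-1.42), the sulfatase ARSA (-1.36) and the carboxypeptidase CTSA (-1.27) fell with it. Among 22 autophagy genes 3 rose and 12 fell (as deposited, 14 rose and 4 fell). GABARAP, which decorates autophagosomes, averaged 189 TPM in the knockdown and 503 TPM in controls (-1.40), and the cargo receptor SQSTM1 136 and 244 TPM in the same order (-0.84).

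In the endoplasmic reticulum, where AGR2 works, chaperones were lower relative to the median gene and disulfide isomerases were called in both directions. Of 21 tested genes of endoplasmic reticulum chaperones, degradation and the unfolded protein response 1 rose and 13 fell (median -0.33; as deposited, 8 rose and 5 fell). HSPA5, the main luminal chaperone BiP, had 382, 367 and 352 TPM in the knockdown, against 530, 554 and 521 TPM in the controls (-0.54; as deposited -0.02). MANF averaged 36.5 TPM in the knockdown and 86.0 TPM in controls (-1.21), DNAJB9 7.20 and 15.1 TPM (-0.97), and XBP1, the transcription factor of the response, 31.5 and 55.3 TPM (-0.79), in that order. HSP90B1 did not pass (-0.07). Among 14 disulfide isomerases and oxidases, the family of AGR2, 4 rose and 6 fell (median -0.08; as deposited, 11 rose and 0 fell), from TXNDC5 (0.56) to ERP29 (-0.57), and P4HB did not pass (-0.12). The share of rises was near the 31.0% of all tested genes. Of 36 genes of the translocon and of COPII and COPI vesicles 8 rose and 14 fell (as deposited, 26 rose and 3 fell), with small subunits of the translocon complex such as SSR4 (-1.07), SPCS1 (-0.83) and SEC61G (-0.73) among the falls.

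Mucins, a class that includes known clients of AGR2, were mostly lower. Of 18 tested genes of mucins and O-glycan enzymes 3 rose and 11 fell (as deposited, 7 and 7). The membrane mucin MUC1 had 3.14, 3.56 and 3.19 TPM in the knockdown, against 40.3, 32.3 and 35.8 TPM in the controls (-3.11). MUC20 (-2.38), MUC16 (-1.49), MUC4 (-0.83) and the fucosyltransferase FUT3 (-1.07) also fell. MUC2, MUC5AC, MUC5B and the trefoil factor genes TFF1, TFF2 and TFF3 were not among the tested genes, so the secreted mucins could not be compared.

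Targets of ATF4, the amino acid stress factor, mostly rose although ATF4 mRNA itself did not pass (688 TPM in the knockdown and 709 TPM in controls, -0.04; as deposited it rose by 0.49). Of 19 tested 14 rose and 4 fell. The secreted hormone STC2 averaged 61.4 TPM in the knockdown and 7.82 TPM in controls (2.83), and the enzymes of serine and one-carbon metabolism PSAT1 (12.9 and 3.34 TPM, 1.69) and MTHFD2 (16 and 5.55 TPM, 1.38) and the asparagine synthetase ASNS (1.05) rose. DDIT4, an inhibitor of mTORC1, had 34.7, 37.3 and 37.0 TPM in the knockdown, against 176, 150 and 159 TPM in the controls (-2.12).

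Genes of lipid synthesis were lower relative to the median gene. Of 23 tested genes of cholesterol synthesis and uptake 0 rose and 19 fell (median -0.45; as deposited, 3 rose and 5 fell and the median was 0.04). TM7SF2 had 3.97, 4.34 and 5.16 TPM in the knockdown, against 56.5, 39.1 and 44.8 TPM in the controls (-3.11), and MSMO1 (-1.16) and the SREBP regulator INSIG1 (-1.03) also fell at least 2-fold. Among 14 genes of fatty acid synthesis and activation 3 rose and 8 fell (as deposited, 6 rose and 2 fell). The desaturase SCD had 10.5, 10.7 and 10.4 TPM in the knockdown, against 36.8, 42.6 and 41.9 TPM in the controls (-1.84), and its activator SREBF1 averaged 5.53 and 12.1 TPM in the same order (-1.002), while the citrate lyase ACLY rose (0.61) and the synthase FASN did not pass (0.13). Of 13 lipid droplet genes 4 were higher, a share near the 31.0% of all tested genes, and 6 lower (as deposited, 6 higher and 2 lower). G0S2, which blocks the triglyceride lipase, averaged 111 TPM in the knockdown and 13.4 TPM in controls (2.96), and that lipase, PNPLA2, averaged 25.9 and 79.1 TPM in the same order (-1.56).

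Messenger RNAs of the mitochondrial genome were lower, and nuclear genes of the organelle differed by list. The mitochondrial genome (15 genes) took up 36.57% ± 0.48 of the TPM in the knockdown and 44.97% ± 2.11 in controls (SD, n = 3 each). Of its 13 mRNAs 0 rose and 11 fell (median -0.72; as deposited, 0 rose and 7 fell). MT-ND6 had 5595, 5892 and 5400 TPM in the knockdown, against 16520, 14790 and 14590 TPM in the controls (-1.44). Nuclear genes of oxidative phosphorylation gave 10 rises and 22 falls among 72 (median -0.12; as deposited, 44 rises and 0 falls), from CYCS, cytochrome c (0.87), to NDUFA3 (-0.92). The share of falls was near that of all nuclear protein-coding genes (31.7%), and the share of rises was below theirs (35.2%). Of 76 mitochondrial ribosomal proteins 28 rose, a share near that 35.2%, and 6 fell, a share below that 31.7%. With length and GC trends removed 45 of them rose and 11 fell. Of 21 genes of pyruvate dehydrogenase and the citric acid cycle 10 rose and 3 fell. The rises included citrate synthase, CS, at 35.7 TPM in the knockdown and 19.2 TPM in controls (0.86), and IDH3A (1.00). Glycolysis gave 10 rises and 2 falls among 20. The hexokinase HK1 (1.01), the isomerase GPI (0.91) and LDHA (0.39) rose, and the glucose transporter SLC2A1 averaged 19.3 TPM in the knockdown and 43.7 TPM in controls (-1.14). Among 14 hypoxia-response genes 5 rose and 7 fell (as deposited, 8 rose and 3 fell), with VEGFA up (0.84) and ADM down (-0.86).

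Detoxification genes were lower relative to the median gene. Of 30 tested targets of NRF2 and aldo-keto reductases 5 rose and 17 fell (median -0.38; as deposited, 14 rose and 6 fell). The heme oxygenase HMOX1 had 5.00, 4.56 and 5.15 TPM in the knockdown, against 25.5, 22.4 and 23.1 TPM in the controls (-2.06). TKT (-1.79) of the pentose phosphate pathway and the quinone reductase NQO1 (-0.60) fell as well. AKR1C2 fell by 1.93 on the log2 scale but shares sequence with its AKR1C paralogs. Among these AKR1C1 had the highest change of the list (0.69), so the single values are uncertain. Of 14 aldehyde dehydrogenases 3 rose and 9 fell (as deposited, 6 rose and 4 fell), among them ALDH3A1, which had 12.0, 11.2 and 13.2 TPM in the knockdown and 333, 256 and 307 TPM in the controls (-4.51), and ALDH3B1 (-2.15). Of 6 tested metallothioneins, which bind zinc and copper, and zinc exporters 4 rose and 1 fell. MT2A averaged 497 TPM in the knockdown and 130 TPM in controls (1.95), MT1A rose (2.19) and MT1F fell (-0.89), and these genes share sequence too. MT1E was listed at 6.97, 6.25 and 7.25 TPM in the knockdown and at 0.0978, 0 and 0 TPM in the controls.

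Keratins, the intermediate filaments of epithelium, fell by large amounts. Of 15 tested 2 rose and 12 fell, 10 of them at least 2-fold (median -1.61; as deposited, 3 rose and 11 fell). KRT18 had 1185, 1266 and 1279 TPM in the knockdown, against 5170, 3833 and 4242 TPM in the controls (-1.82), and its partner KRT8 averaged 129 and 483 TPM in the same order (-1.89). KRT13 averaged 1.20 TPM in the knockdown and 66.3 TPM in controls (-4.93), KRT17 32.9 and 354 TPM (-3.37) and KRT16 31.4 and 152 TPM (-2.23). KRT6B rose instead, with 97.1, 98.3 and 98.8 TPM in the knockdown and 20.8, 18.6 and 19.6 TPM in the controls (2.26). KRT6A (1.47) rose too, and reads could be shared between these 2 near-identical genes. Among 30 genes of junctions and adhesion 3 rose and 20 fell (as deposited, 9 and 9). The claudins CLDN3 (-2.44), CLDN4 (-1.69) and CLDN7 (-1.09) fell while CLDN1 rose (0.87). E-cadherin, CDH1, averaged 5.81 TPM in the knockdown and 8.88 TPM in controls (-0.53; as deposited -0.07). Of 15 epithelial transcription and splicing regulators 3 rose and 8 fell (as deposited, 6 rose and 5 fell), with ELF3 (56.0 TPM in the knockdown and 269 TPM in controls, -2.24) and FOXA1 (-1.13) down and SOX9 (70.1 and 22.1 TPM in the same order, 1.62) and EHF (1.04) up.

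Mesenchymal genes were mixed rather than uniformly raised. Among 17 tested 9 rose and 6 fell (median 0.48). The intermediate filament VIM had 43.0, 45.2 and 46.8 TPM in the knockdown, against 5.25, 4.92 and 5.22 TPM in the controls (2.91). TGM2, a protein cross-linker, averaged 49.3 and 4.36 TPM in the same order (3.23), the chromatin protein HMGA2 9.28 and 0.621 TPM (2.67) and the hyaluronan receptor CD44 48.5 and 11.5 TPM (1.98). The contractile genes TAGLN (-1.72) and TPM1 (-1.08) and the calcium-binding S100A4 (-1.60) fell, and the transcription factor SNAI2 did not pass (-0.10). CDH2, ZEB1, ZEB2 and TWIST1 were not among the tested genes. Of 17 integrin and laminin genes, which attach cells to matrix, 11 rose and 4 fell. ITGA6, the laminin receptor subunit, had 12.1, 11.0 and 10.9 TPM in the knockdown, against 0.982, 1.17 and 1.13 TPM in the controls (2.56), and the collagen receptor subunit ITGA2 averaged 7.59 and 1.26 TPM in the same order (1.93). Of 14 genes of the plasminogen system and metalloproteinases 3 rose and 9 fell (as deposited, 5 rose and 2 fell), with the protease PLAU up (0.59).

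Developmental signalling genes were called in both directions, as were all tested genes (31.0% higher and 30.7% lower). Of 20 tested genes of TGF-beta, activin and BMP signalling 5 rose and 8 fell (as deposited, 7 rose and 4 fell). ID3, a BMP-induced inhibitor of differentiation factors, had 25.2, 26.3 and 33.0 TPM in the knockdown, against 256, 193 and 229 TPM in the controls (-2.96), and ID1 fell too (-1.11). The activin subunit INHBB averaged 8.87 TPM in the knockdown and 48.4 TPM in controls (-2.32), and its alternative INHBA 23.4 and 8.64 TPM in the same order (1.34). Of 21 YAP and TEAD targets 6 rose and 10 fell (as deposited, 12 rose and 5 fell). The defining targets CCN1 (0.10) and CCN2 (0.03) did not pass, and IGFBP3 averaged 524 TPM in the knockdown and 1974 TPM in controls (-1.91).

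Interferon genes were lower, and inflammatory cytokines were mixed. Of 35 interferon-stimulated genes 16 reached the testing level, and of these 2 rose and 12 fell, 9 at least 2-fold (median -1.17; as deposited, 4 rose and 11 fell). IRF9, the DNA-binding subunit of the type I response, had 3.66, 4.24 and 4.26 TPM in the knockdown, against 13, 10.3 and 12.2 TPM in the controls (-1.34), and IRF7 (-1.45) and IFITM3 (-1.51) fell. Of 16 genes of MHC class I and antigen processing 2 rose and 8 fell (as deposited, 7 rose and 4 fell). The immunoproteasome subunit PSMB10 (-1.15) and HLA-E (-0.81) fell, and B2M (-0.19) did not pass. Among 18 tested cytokines, chemokines and receptors 10 rose and 6 fell. IL1B had 6.56, 6.43 and 6.23 TPM in the knockdown, against 0.136, 0.211 and 0.227 TPM in the controls (2.64), and IL1A averaged 4.80 and 0.104 TPM in the same order (2.39). The neutrophil chemoattractants CXCL8 (1.87) and CXCL1 (1.61) and the IL6-family cytokine IL11 (1.82) rose, and IL32 fell (-1.84). In the NF-kB list 2 of 16 rose and 7 fell (as deposited, 8 and 4). The feedback inhibitor TNFAIP3 rose (1.44), and the adhesion molecule ICAM1 (5.27 TPM in the knockdown and 31.6 TPM in controls, -2.38) and NFKB2 (-1.26) fell. Of 11 mucosal defence genes 3 rose and 6 fell (as deposited, 5 and 5), with the protease inhibitor SLPI at 157, 153 and 138 TPM in the knockdown and 1002, 823 and 817 TPM in the controls (-2.55), LCN2 down (-1.03) and complement C3 up (1.33). The S100 family gave 4 rises and 6 falls among 11 (as deposited, 5 and 3). S100A9 averaged 56.2 TPM in the knockdown and 1.24 TPM in controls (4.69), and S100P 2.81 and 67.2 TPM in the same order (-4.15).

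Genes of cell death were called in both directions. Of 15 tested members of the BCL2 family and the inhibitors of apoptosis 4 rose and 5 fell. These counts lie near the shares of all tested genes, 31.0% higher and 30.7% lower. The list median was 0.01 (as deposited, 9 rose and 4 fell and the median was 0.41). The BH3-only genes BMF, at 13.2, 12.7 and 13.6 TPM in the knockdown and 31.0, 33.1 and 35.0 TPM in the controls (-1.26), and BCL2L11, which encodes BIM and is repressed by ERK signalling (1.54 and 3.00 TPM, -0.65), fell. The caspase inhibitor XIAP (0.67) and the pore-forming BAX (0.50) rose, and MCL1 did not pass (0.01). Among 15 p53-responsive genes 9 rose and 4 fell, with AEN (1.59) and MDM2 (0.60) up and TP53I3 down (-1.26).

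**Figure D4:**
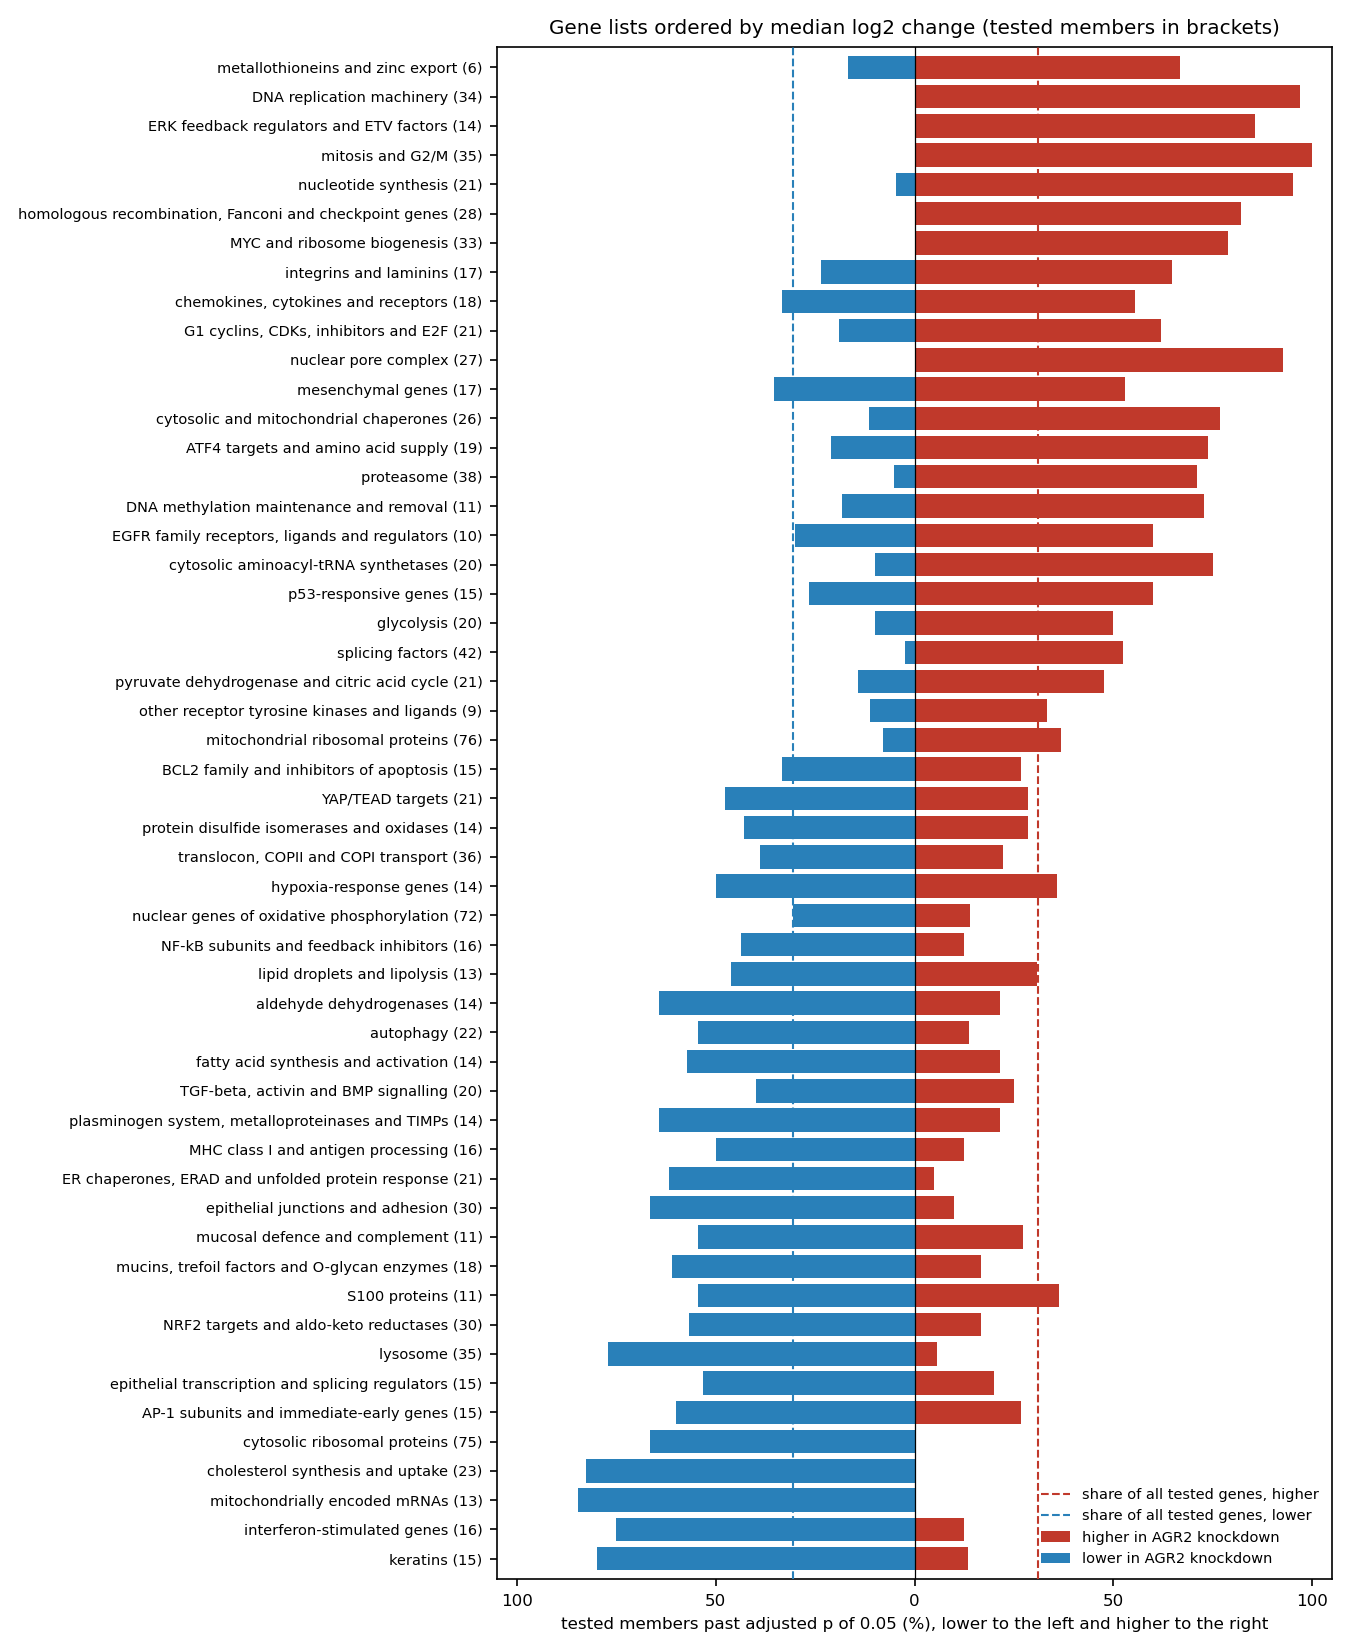
Percent of tested members that rose (red, right) or fell (blue, left) in AGR2 knockdown for each of 52 gene lists, ordered by median log2 change, with the number tested in brackets. Dashed lines mark the shares over all tested genes, 31.0% higher and 30.7% lower. Metallothioneins, replication, ERK feedback and mitosis lie at one end, and keratins, interferon-stimulated genes, mitochondrial mRNAs and cholesterol synthesis at the other.

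Some of the largest changes lay outside these lists. Among the 24 largest falls, CD24, a surface sialoglycoprotein, had 70.2, 69.0 and 66.3 TPM in the knockdown, against 638, 651 and 644 TPM in the controls (-3.22). The water and glycerol channel AQP3 averaged 10.0 TPM in the knockdown and 87.7 TPM in controls (-3.01), WNT11 1.16 and 21.9 TPM (-3.40), and CYBA, the membrane subunit of NADPH oxidase, 0.314 and 41.1 TPM (-4.98). CLIC3 (-3.46) and CRIP1 (-2.99) also fell, with control libraries spread from 66.2 to 114 TPM and from 146 to 258 TPM. Among the 24 largest rises were the cancer-testis antigens MAGEC2 (4.21) and SPANXB1 (2.49), the purine transporter SLC43A3 (2.34), the cornified envelope protein SPRR1B (2.25) and the X-linked histone chaperone NAP1L2 (3.14). By class of gene, 302 of 1850 long non-coding RNAs rose (16.3%) and 663 fell (35.8%) relative to the median gene. Of 9950 nuclear protein-coding genes 3505 rose (35.2%) and 3154 fell (31.7%). In TPM as deposited the long non-coding class did not hold less in the knockdown. It took up 3.8% ± 0.07 of the TPM there and 3.41% ± 0.3 in controls (SD, n = 3 each).

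**Figure D5:**
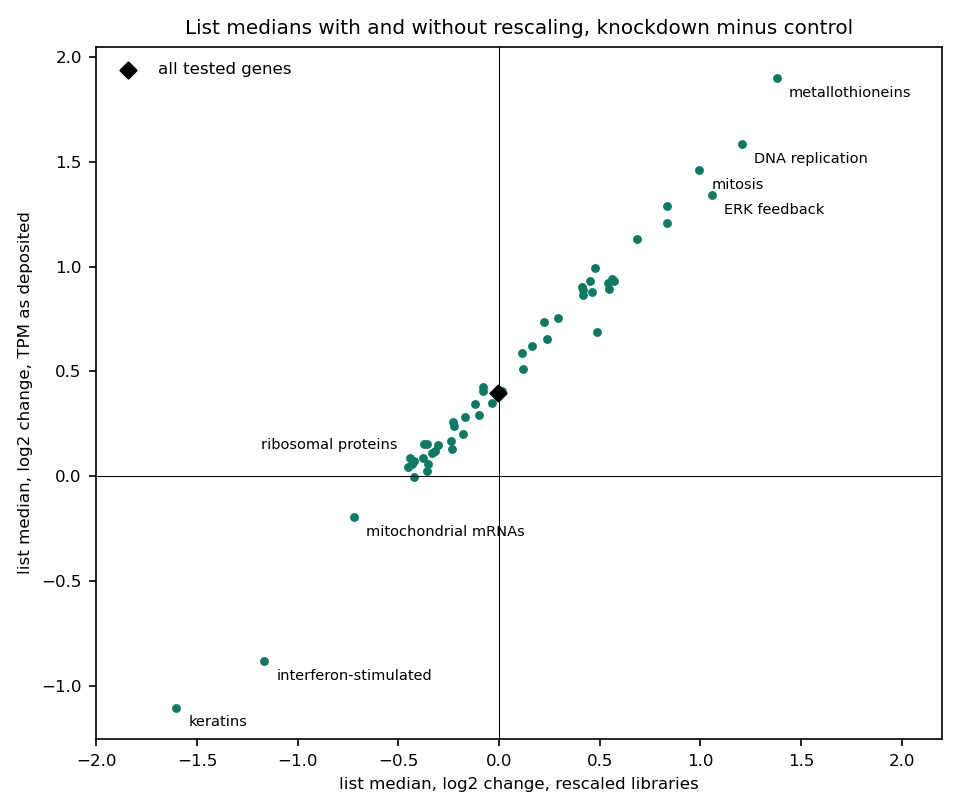
Median log2 change of each of the 52 lists, knockdown minus control, with rescaled libraries (horizontal) and with TPM as deposited (vertical), and all tested genes as a diamond at -0.004 and 0.40. Keratins, interferon-stimulated genes and mitochondrial mRNAs lie below 0 on both axes, and ribosomal proteins lie at -0.44 and 0.09.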

How the data were processed

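Per the labels' protocols, PC9 RNA came from NucleoZOL extraction and went into Illumina libraries. Reads were aligned with STAR 2.7.8a to hg38, per the submitters' processing notes. The sources used here name no quantifier, annotation release or strandedness. TPM values were deposited by the authors as 1 table, so read counts and depth are unknown.

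The 6 libraries were rescaled, each by its median of ratios to gene-wise geometric means, over genes at 1 TPM or more in at least 3 of them, and log2(TPM + 1) was tested with limma 3.58.1 in R 4.3.3 (empirical Bayes with a mean trend, 2-sided, Benjamini-Hochberg over all 13974 genes, threshold 0.05). An exact permutation of 3 against 3 libraries cannot go below p = 0.1. The script was tested on simulated data. Promoter sequences are from RefSeq and were searched in Python 3.11.15.

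The members and the 52 gene lists were chosen with earlier results of these data known. Genes named are a subset of those a rule selected: AGR2, the first 3 members of each list, its up to 5 largest changes past the threshold with a mean of 5 TPM or more in the higher group, and the 24 largest rises and falls without overlap. ETV4, ETV5, SPRY1, LIF, JUNB, TGFA, RPA3, PRC1, ESPL1, KRT6A, CLDN1, TPM1, SNAI2 and AKR1C1 were named after their values were seen. CD68 and NKX2-1 were named as markers. Alternatives were other scalings, pseudocounts, filters, fits, a length and GC correction, a replicate block and each library left out. Some results are not reported here.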

Additional observations from a re-analysis of the deposited data

How the results depend on the processing

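Scaling decided the balance of the calls. In TPM as deposited 8114 genes were higher and 1669 lower, with 1907 and 387 at least 2-fold, and 6004 of the 8629 called genes passed in the same direction and 250 in the opposite one. As deposited, JUN (0.058) turned positive without passing, and ATF4 (0.485), B2M (0.341), HSP90B1 (0.456), LIF (0.476), MET (0.383), P4HB (0.409), RPA3 (0.383) and SNAI2 (0.404) turned positive and passed. ATF4 was also positive after quantile normalisation (0.233) and with length and GC trends removed (0.193, and 0.193 with the replicate block added), where EGFR turned negative (-0.129). The length and GC correction combined with the block was chosen after seeing the data. List medians shifted by more than their spread between libraries in all 52 lists as deposited. They did so in 36 lists with length and GC trends removed and in 38 at a pseudocount of 5. The median of integrins and laminins, for example, was 0.57 in the main fit and 0.27 with the trends removed. At 5 TPM or more in 3 libraries 2539 genes were higher and 2507 lower of 7392 tested, with 581 at least 2-fold lower. Pseudocounts moved the 2-fold counts, to 1153 higher at 0.1, and to 195 higher and 408 lower at 5. Leaving out 1 library gave 3609 to 4381 higher and 3634 to 4368 lower, 596 to 738 and 835 to 1020 at least 2-fold, and an AGR2 change of -4.71 to -4.58. Same-numbered libraries deviated with r = -0.18, 0.019 and 0.066, and knockdown library 1 correlated best with control library 2 (0.153). With 3 libraries per group, such weak values cannot show whether same-numbered libraries were handled together. A replicate block gave 3899 higher and 3953 lower. The causes of these differences were not tested, and without depth the counting error of low genes is unknown.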

Other observations

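Changes were uneven along the chromosomes. Of 457 tested protein-coding genes on chromosome 7, which carries AGR2, 101 rose (22.1%) and 223 fell (48.8%). The shares of all nuclear protein-coding genes were 35.2% and 31.7%. The median log2 change on chromosome 7 was -0.18, and -0.21 with length and GC trends removed. Chromosome 13 (52.9% higher and 20.3% lower) and chromosome 5 (48.4% and 17.1%) were skewed the other way. Among 172 windows of 10 Mb with at least 20 tested protein-coding genes, that from 100000001 to 110000000 on chromosome 7 had 4 of 67 genes higher and 53 lower (median -0.67, and -0.57 with the trends removed). AGR2, at 16791811 to 16833433, lies outside that window. On chromosome 3 the window from 50000001 to 60000000 had 3 of 59 higher and 38 lower (-0.45, and -0.46 with the trends removed). On chromosome 1 the window from 230000001 to 240000000 had 19 of 25 higher and 0 lower (0.44, and 0.24 with the trends removed), and on chromosome 13 that from 40000001 to 50000000 had 30 of 38 higher and 2 lower (0.45, and 0.31 with the trends removed). Coordinates are GRCh38, the windows were picked after their values were seen, and copy number was not measured.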
